A study of Mus musculus with 6 samples.

Results

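Clustered replication-dependent histone genes were compared between resident macrophages, called dLAM in the labels, and monocyte-macrophages, here Mono-macrophages, from the cerebrospinal fluid of mice with leptomeningeal metastasis. The genes were taken by symbol, as all entries named Hist1 to Hist4 for a histone of class H1, H2A, H2B, H3 or H4, which gave 70 of the 34652 genes in the table. The set was selected on earlier results of the same contrast between dLAM and Mono-macrophages, so their FPKM values and differences are a description of these 6 libraries, and nothing is supported by them.

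Bulk RNA sequencing was done on cells sorted at day 12 after inoculation of LLC-LeptoM, tumor cells of the Lewis lung carcinoma. All mice of both groups were Cx3cr1CreER:mTmG and were given tamoxifen, so that Cre driven from Cx3cr1 turns on a green membrane reporter in cells where it has acted. dLAM, 3 libraries, were sorted on CD45, CD11b, F4/80 and GFP with no Ly6C. Mono-macrophages, 3 libraries, were a mixture of GFP-negative cells of a pair of gates on CD45 and CD11b, the first with F4/80 and the second with low F4/80 and Ly6C. Cx3cr1 is also used by monocytes, a gate without GFP holds any cell in which Cre has not acted, and the mixture holds cells at more than 1 stage. Whether each library stands for its own mouse is not said in the labels, and the p-values reflect only how these libraries vary, part of which may be technical variation. A total of 10 samples is named in the series' description, and these 6 were analysed here.

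Nucleosomes wrap DNA around an octamer of the core histones H2A, H2B, H3 and H4, and the linker histone H1 binds the DNA between them. The genes described here supply these proteins when DNA is copied in S phase, they have no introns in their classical form, and their messengers end in a short stem-loop in place of a poly(A) tail. NPAT drives their transcription at the histone locus body, the U7 small nuclear ribonucleoprotein directs the cut after the stem-loop, and SLBP binds the stem-loop for processing, translation and decay. Histone variants such as H2A.Z, H3.3 and macroH2A come from separate genes outside these clusters, whose messengers mostly carry a poly(A) tail and are made through the cell cycle.

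By the GENCODE M21 annotation on GRCm38, the assembly that mm10 names, cluster Hist1 lies on chromosome 13 (chr13:21715763-23934851) and held 55 of its 56 named genes, since the pseudogene Hist1h2al lies further along that chromosome (chr13:51202727-51203065). Hist2 lies on chromosome 3 (chr3:96219865-96270132) with 10 genes, Hist3 on chromosome 11 (chr11:58948920-58956830) with 3, and Hist4 on chromosome 6 (chr6:136801553-136804415) with 1. There were 6 H1, 20 H2A, 19 H2B, 12 H3 and 13 H4 genes, and 3 of the 70 were annotated as pseudogenes (Hist1h2aj, Hist1h2al and Hist3h2bb-ps). H4 was the most uniform class, as its 13 genes encode 1 protein of 103 residues (initiator methionine included), although their coding sequences were identical at a median of 93.9% of positions. The 12 H3 genes encode 2 proteins, 18 H2B genes with an annotated coding sequence encode 11, 18 such H2A genes encode 9, and the 6 H1 genes encode 6.

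The stem-loop that marks these messengers was searched for in the annotated transcripts, and its forms are shown because those of H4 genes differ from those of the other classes. The search took a stem of 6 pairs that begins with GG and a loop of 4 bases with T at loop positions 1 and 3 and no G. It was found in 46 of the 51 histone genes with at least 40 annotated bases after the stop codon, between 22 and 59 bases after that codon, and in 55 of 50532 other transcripts with as many bases (0.109%). The other 19 histone genes have no annotated coding sequence or models that end too early for the search. There were 8 forms, of which the 4 most frequent follow, with the stem in capitals and the loop in lower case, from the GENCODE M21 transcripts. The stems of H4 genes began with GGCCCT or GGTCCT, and all stems of other classes with GGCTCT.
form in 26 genes of classes H1, H2A, H2B and H3: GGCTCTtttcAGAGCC
form in 7 genes, all H4: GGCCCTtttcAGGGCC
form in 6 genes of classes H1, H2B and H3: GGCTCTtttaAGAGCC
form in 2 genes, both H4: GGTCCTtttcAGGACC

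Stretches of promoter are shown for the genes of classes H1 and H4 with the highest mean FPKM and for an H2B gene. That H2B gene shares its upstream region with an H2A gene. They were chosen since the members are described by class and, for H2A and H2B, by head-to-head pair. RefSeq promoter windows of 300 bases (250 before and 50 after the start site, GRCm38.p6) matched 62 of the 70 genes. The 150 bases before the start site follow, 5′ to 3′ on the gene's strand, with the TATA box letters TATAAA, the letters CCAAT and the octamer ATTTGCAT in capitals on either strand, so that CCAAT on the opposite strand reads ATTGG. No letters of a match belong to a second motif. The stretches are Hist1h1e on the minus strand at chr13:23622559-23622708, Hist1h2bg on the plus strand at chr13:23571250-23571399 and Hist1h4d on the plus strand at chr13:23581418-23581567.
Hist1h1e: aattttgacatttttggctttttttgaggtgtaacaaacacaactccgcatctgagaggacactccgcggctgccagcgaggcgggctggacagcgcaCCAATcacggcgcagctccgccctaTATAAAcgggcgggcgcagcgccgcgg
Hist1h2bg: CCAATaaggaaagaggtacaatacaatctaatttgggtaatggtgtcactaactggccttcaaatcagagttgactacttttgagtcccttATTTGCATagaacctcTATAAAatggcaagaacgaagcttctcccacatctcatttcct
Hist1h4d: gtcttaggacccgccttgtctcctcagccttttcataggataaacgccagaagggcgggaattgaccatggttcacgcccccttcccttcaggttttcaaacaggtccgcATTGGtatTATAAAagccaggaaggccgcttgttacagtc

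Over the whole windows and both strands, TATAAA was present in 35 of the 62 histone promoters (56.5%) against 13.6% of all 32851 promoters. CCAAT was present in 53 of 62 (85.5%) against 37.4% of all, and it was in each matched H1, H2A, H2B and H3 promoter but in 3 of 12 H4 promoters. The octamer was present in 13 of 62 (21.0%) against 1.74% of all, in 7 of 18 H2A and 6 of 16 H2B promoters and in no promoter of the other classes. Windows of head-to-head genes can overlap, so the same site can be counted for both genes, as with the octamer of Hist1h2ae and Hist1h2bg. A match is a description of the letters in these windows.

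The libraries held an estimated 1.23e+07 to 1.70e+07 fragments, and between 10281 and 11470 genes reached 1 FPKM, the unit of the table, fragments scaled to gene length and to the size of the library. Of all genes, 11317 had at least 1 FPKM in at least 3 libraries and were fitted with limma on log2(FPKM + 1). In dLAM, 1204 of these were lower (10.6%) and 2249 higher (19.9%) at an adjusted p under 0.05, and all genes tested had a median log2 fold change of 0.06. After quantile normalization, which shifts that median by -0.11, 1702 were lower and 1799 higher, and the median of the histone genes relative to that of all genes was -1.74 against -1.92 with FPKM as deposited. The markers went with the sort: all 8 border macrophage genes were higher in dLAM, 4 of which reached the filter only there, and all 8 classical monocyte genes lower. Of 8 general macrophage genes 3 were higher and 1 lower. Markers of other cells differed too. T cell genes were higher in dLAM for 13 of 13 (summed FPKM 231 to 292 against 9.81 to 42.3), as were 9 of 10 conventional dendritic cell genes (122 to 189 against 16.3 to 19.2), 5 of 5 tested B and plasma cell genes (68.4 to 345 against 13.8 to 37.5) and 3 of 3 tested carcinoma genes (27.0 to 31.8 against 1.99 to 3.18; Sftpc was listed at 0 in all libraries). Neutrophil and granulocyte precursor genes were lower for 7 of 12, with summed FPKM of 1311 to 1695 in dLAM and of 2052, 7206 and 12027 in Mono-macrophage libraries 1, 2 and 3. Libraries dLAM 3 and Mono-macrophage 2 carried more Y-linked Ddx3y RNA (10.1 and 10.6 FPKM) than the other 4 (1.56 to 2.68). They carried less X-linked Xist RNA (10.5 and 10.6 FPKM against 40.3 to 58.2), and both RNAs were measured in every library. Whether a library pools mice of both sexes was not tested. Of the 67 tested marker genes, 16 higher in dLAM passed the filter through the dLAM libraries alone, so their direction was set by the filter. These were 4 border macrophage, 6 conventional dendritic cell, 2 T cell, 2 B and plasma cell and 2 carcinoma genes. Without them, 4 of 4 border macrophage genes, 3 of 4 dendritic cell genes and 11 of 11 T cell genes were higher in dLAM. So were 3 of 3 B and plasma cell genes and 1 of 1 carcinoma gene. The part of these cells and libraries in the histone values was not tested.

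Histone RNA was lower in dLAM in every class. Values of triplets below follow the order of libraries 1, 2 and 3. The FPKM of the 70 genes summed to 5695, 5500.3 and 4796 in dLAM and to 18889.9, 14196 and 23403 in Mono-macrophages, or 5330.2 ± 473 FPKM (SD, n = 3) in dLAM and 18829.6 ± 4604 FPKM (SD, n = 3) in Mono-macrophages, a ratio of 3.53. The highest dLAM sum was below the lowest Mono-macrophage sum. As a share of all FPKM in the library this was 1.96%, 1.996% and 1.74% in dLAM against 6.65%, 5.15% and 7.503% in Mono-macrophages. In bulk libraries, fewer cells in S phase and less histone RNA per cell cannot be told apart. Of the 70 genes, 66 passed the filter on low values, none of them through 1 group alone. Of those, 59 were lower in dLAM, 0 were higher (limma; 0 at an unadjusted p under 0.05) and 7 did not pass. The background was 10.6% lower and 19.9% higher of all genes tested, and since the contrast chose the genes, nothing is read from the difference. All 3 Mono-macrophage libraries lay above all 3 dLAM libraries for 59 of the 66 tested genes, where the background was 16.9% of genes tested. Among the 454 genes tested with a log2 fold change of -1 or less were 60 histone genes, and among the 66 genes of -2 or less were 20. The median log2 fold change of the tested histone genes was -1.85, with a range from -2.92 to 0.31.

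**Figure D1:**
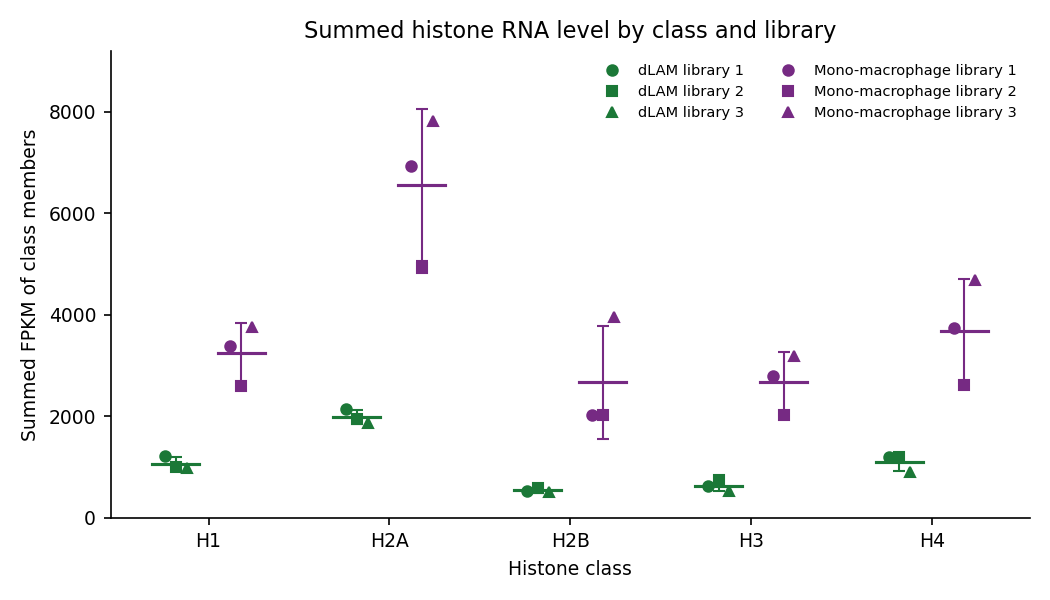
Summed FPKM of the members of each histone class (vertical axis) by class (horizontal axis), with 1 point per library, a horizontal line at the mean and bars of 1 SD over 3 libraries. In each class the dLAM libraries lie below the Mono-macrophage libraries, and H2B of Mono-macrophage library 3, at 3956, stands apart from the other 2 Mono-macrophage libraries at 2024 and 2034.

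The linker histones H1 compact chromatin between nucleosomes, and their messengers are longer and differ in sequence from one another. Their FPKM summed to 1211, 999.7 and 973 in dLAM and to 3392, 2592 and 3762 in Mono-macrophages, a ratio of 3.06. Hist1h1e, for H1.4, stood at 411, 324 and 293 FPKM in dLAM and at 1054, 863 and 1239 FPKM in Mono-macrophages. Hist1h1c, for H1.2, stood at 386, 303 and 312 FPKM in dLAM and at 867, 643 and 878 FPKM in Mono-macrophages. Both genes had groups that did not overlap, but the distance differed, with log2 fold changes of -1.62 ± 0.20 (SE) and -1.25 ± 0.18 (SE). Hist1h1c made up 31.4% ± 0.959 (SD, n = 3) of H1 FPKM in dLAM and 24.6% ± 1.13 (SD, n = 3) in Mono-macrophages, while Hist1h1e made up 32.1% ± 1.94 and 32.4% ± 1.2. Hist1h1d, for H1.3, stood at 241, 208 and 208 FPKM in dLAM and at 728, 587 and 818 FPKM in Mono-macrophages. FPKM are scaled to annotated length, which was 7425 bases for Hist1h1d and 1930 for Hist1h1e. Hist1h1d had more estimated fragments than Hist1h1e, as in dLAM library 1 (26449 against 11710) and Mono-macrophage library 3 (103335 against 40681). The order and shares of genes within a class, and the sums and shares of the classes, thus depend on annotated lengths. Hist1h1a, for H1.1, had the most negative value of the class, -2.14 ± 0.23, from levels of 57, 49.6 and 41.6 FPKM in dLAM and 264, 153 and 262 FPKM in Mono-macrophages. Hist1h1b, for H1.5, lay between them at -1.94 ± 0.18. The testis form Hist1h1t did not reach the filter, with 0.742, 0.669 and 0.663 FPKM in dLAM and 5.11, 0.878 and 4.92 FPKM in Mono-macrophages, and its groups did not overlap. All 5 tested H1 genes were among the lower ones. Of the 6 H1 genes, 5 had no 150-base window with an exact match in the annotated transcripts of another gene.

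H2A pairs with H2B on the outside of the nucleosome. H2A messengers had the largest summed FPKM, 2146, 1953 and 1874 in dLAM and 6937, 4913 and 7817 in Mono-macrophages, a ratio of 3.29. This ranking of classes holds for FPKM and need not hold for fragments. Of 20 genes 18 were tested, 16 were lower and the median log2 fold change was -1.84. Hist2h2aa1 had the highest level of the class in dLAM, and Hist1h2ao in Mono-macrophages. Hist2h2aa1 stood at 543, 259 and 468 FPKM in dLAM and at 977, 251 and 1164 FPKM in Mono-macrophages. Its groups overlapped because Mono-macrophage library 2 held less than any dLAM library, and its difference did not pass (-0.71 ± 0.58). Without that library its log2 fold change was -1.40 and passed. Hist1h2ao stood at 210.2, 274 and 236 FPKM in dLAM and at 1058, 783 and 1090.0 FPKM in Mono-macrophages. Hist1h2ak stood at 202, 252 and 169 FPKM in dLAM and at 771, 639 and 1031 FPKM in Mono-macrophages. Both were separated by group in every library, with log2 fold changes of -2.01 ± 0.18 and -1.96 ± 0.22. Hist1h2ao had windows of its own over 8.46% of its transcript and Hist1h2ak over 100%. A window counts as shared only with an exact match, and the part of shared reads in these differences was not tested. Hist1h2ag had the most negative value, -2.28 ± 0.11, at 21.7, 22.3 and 18.6 FPKM in dLAM and 114, 103 and 98.1 FPKM in Mono-macrophages. The highest value of the class belonged to Hist3h2a in cluster Hist3, described with that cluster. The testis gene Hist1h2aa and the pseudogene Hist1h2al were each listed at 0 in at least 1 library and at most at 1.24 FPKM in the others.

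H2B messengers summed to 527, 589 and 505 FPKM in dLAM and to 2024, 2034 and 3956 in Mono-macrophages, a ratio of 4.94. That ratio rested in part on Mono-macrophage library 3, without which it was 3.75, against 3.81 for H3, 2.98 for H2A, 2.88 for H4 and 2.82 for H1. The sum of Mono-macrophage library 2 included 179 FPKM of Hist2h2bb, which has no window of its own. H2B genes of cluster Hist1 alone summed to 2011, 1847 and 3931 in Mono-macrophages. They made up 10.2% ± 0.798 of the summed histone FPKM in dLAM and 14% ± 3.11 in Mono-macrophages (SD, n = 3), where the libraries held 10.7, 14.3 and 16.9%. The mean shares of the other classes in dLAM and Mono-macrophages were 19.9% and 17.4% for H1, 37.4% and 34.9% for H2A, 11.9% and 14.3% for H3 and 20.6% and 19.4% for H4. All 19 genes were tested, 14 were lower and the median log2 fold change was -1.89. Hist1h2bn stood at 66.3, 71 and 64 FPKM in dLAM and at 279, 299 and 612 FPKM in Mono-macrophages. Hist1h2bb stood at 77.9, 79.8 and 70 FPKM in dLAM and at 286, 246 and 603 FPKM in Mono-macrophages. Hist1h2bg, whose promoter is printed above, stood at 82.6, 86.5 and 77.5 FPKM in dLAM and at 271, 224 and 473 FPKM in Mono-macrophages. In all 3 the groups were apart, and Mono-macrophage library 3 stood at 2.12, 2.27 and 1.91 times the mean of libraries 1 and 2. The log2 fold changes were -2.45 ± 0.28, -2.19 ± 0.31 and -1.89 ± 0.26. The only member of all 70 with a log2 fold change above 0 was Hist3h2ba. The most negative value, Hist2h2bb at -2.92 ± 1.36, came from 1 library and did not pass.

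H3 and H4 form the tetramer at the core of the nucleosome. H3 messengers summed to 618, 750.3 and 538 FPKM in dLAM and to 2802, 2034 and 3193 in Mono-macrophages, a ratio of 4.21. All 11 tested H3 genes were lower, with a median log2 fold change of -1.98. Hist2h3c2 had the highest mean of the class in both groups and stood at 153, 187 and 134 FPKM in dLAM and at 746, 510.5 and 622 FPKM in Mono-macrophages. Hist1h3b stood at 76.4, 102 and 68.7 FPKM in dLAM and at 441, 299 and 489 FPKM in Mono-macrophages. Hist1h3e stood at 80.4, 90.7 and 66.4 FPKM in dLAM and at 297, 223 and 275 FPKM in Mono-macrophages. No dLAM library of these 3 genes reached the lowest Mono-macrophage library. The class ranged from Hist1h3c (-2.43 ± 0.28, 32.3, 47.7 and 36.2 FPKM against 159, 176 and 334 FPKM) to Hist1h3f (-1.66 ± 0.25, 41.3, 51.9 and 32.4 FPKM against 139, 93.6 and 177 FPKM). That range of 11 genes, which leaves out the untested Hist2h3c1, was narrower than the range of H2A or H2B. Within cluster Hist1, values ran from -2.43 to -1.66 for H3, -2.28 to -1.43 for H2A and -2.58 to -0.097 for H2B.

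H4 messengers summed to 1193, 1208 and 906 FPKM in dLAM and to 3734, 2624 and 4675 in Mono-macrophages, a ratio of 3.34. All 13 genes were tested and lower, with a median log2 fold change of -1.77. Hist1h4d had the highest level of all 70 genes, 576, 575 and 462 FPKM in dLAM and 1796, 1299 and 1802 FPKM in Mono-macrophages. It alone supplied 49% ± 1.8 (SD, n = 3) of H4 FPKM in dLAM and 45.4% ± 5.96 (SD, n = 3) in Mono-macrophages, although all 13 genes encode the same protein. Hist1h4m stood at 136, 112 and 79.5 FPKM in dLAM and at 367, 225 and 589 FPKM in Mono-macrophages. Hist1h4c, the gene with the least negative value of the class (-1.34 ± 0.31), stood at 114, 129 and 84.6 FPKM in dLAM and at 305, 169 and 396 FPKM in Mono-macrophages. Without dLAM library 3 that gene no longer passed (limma adjusted p = 0.055). Hist1h4f had the most negative value, -2.22 ± 0.35, at 49.1, 52.8 and 46.5 FPKM against 181, 159.5 and 438 FPKM, with Mono-macrophage library 3 at 2.57 times the mean of the other 2.

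**Figure D2:**
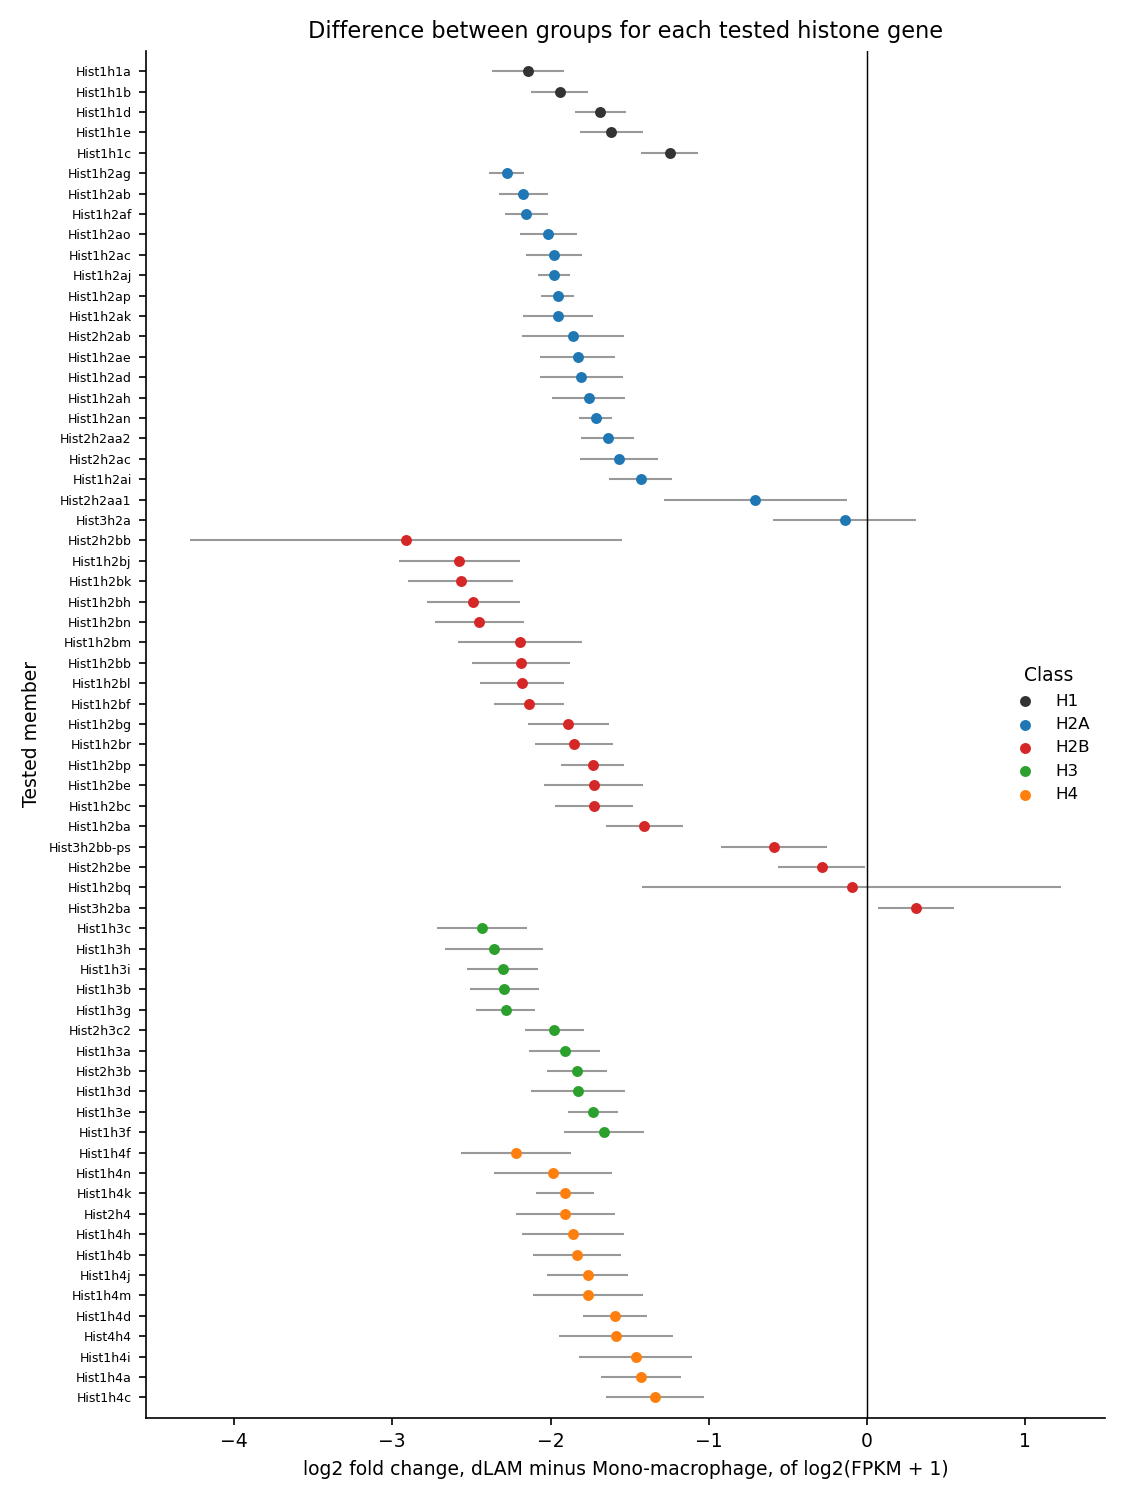
Log2 fold change of each of the 66 tested histone genes (dLAM minus Mono-macrophages on the log2(FPKM + 1) scale, horizontal axis) with bars of 1 standard error, genes ordered within class and coloured by class. Most genes lie between -1.25 and -2.58, and the points nearest 0 are genes of clusters Hist2 and Hist3 and Hist1h2bq.

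By cluster, the 53 tested Hist1 genes had a median log2 fold change of -1.91 and 52 were lower, the exception being Hist1h2bq. Within Hist1 the class medians were -1.69 for H1, -1.96 for H2A, -2.13 for H2B, -2.28 for H3 and -1.77 for H4. The 9 tested Hist2 genes had a median of -1.83 and 6 were lower. With only the Hist2 genes that have windows of their own over at least 50% of the transcript, the median was -1.57. Those are Hist2h2ac, Hist2h2be and Hist2h4, so this median is the value of Hist2h2ac. Hist2h2aa2 stood at 173, 157 and 152 FPKM in dLAM and at 487, 413 and 624 FPKM in Mono-macrophages (-1.64 ± 0.17). Hist2h2ac stood at 260.5, 226 and 186 FPKM in dLAM and at 668, 476 and 908 FPKM in Mono-macrophages (-1.57 ± 0.25). Hist2h2ab stood at 41.6, 42.8 and 21.6 FPKM in dLAM and at 154, 83.1 and 152 FPKM in Mono-macrophages (-1.86 ± 0.32). These 3 H2A genes, Hist2h3b (-1.83 ± 0.19), Hist2h3c2 and the H4 gene Hist2h4 (-1.91 ± 0.31) all had groups that did not overlap. Hist2h2be, whose annotated messenger extends far past the stop codon, stood at 2.04, 2.39 and 1.78 FPKM in dLAM and at 2.4, 1.63 and 4.82 FPKM in Mono-macrophages, and its groups overlapped (-0.29 ± 0.28).

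Cluster Hist3 was the one cluster with no gene among the lower ones, with a median of -0.14 over 3 genes. Hist3h2a stood at 22, 22 and 20.4 FPKM in dLAM and at 11, 23.5 and 50.6 FPKM in Mono-macrophages. Hist3h2ba stood at 3.08, 6.09 and 4.46 FPKM in dLAM and at 2.85, 2.78 and 4.69 FPKM in Mono-macrophages. The pseudogene Hist3h2bb-ps stood at 2.47, 4.72 and 3.46 FPKM in dLAM and at 5.34, 3.37 and 9.85 FPKM in Mono-macrophages. In all 3 genes the groups overlapped, and Mono-macrophage library 3 was the highest of its group. Their log2 fold changes were -0.14 ± 0.45, 0.31 ± 0.24 and -0.59 ± 0.33, and that of Hist3h2a was 0.39 without Mono-macrophage library 3. The sum of Hist3 was 27.5, 32.8 and 28.3 FPKM in dLAM and 19.2, 29.6 and 65.1 in Mono-macrophages, so these genes were a small part of histone RNA. The only Hist4 gene, Hist4h4, encodes the same H4 protein as the others and stood at 14.8, 9.82 and 8.21 FPKM in dLAM and at 25.5, 24.7 and 61.4 FPKM in Mono-macrophages (-1.58 ± 0.36). Its groups did not overlap, but without dLAM library 2 it no longer passed (limma adjusted p = 0.053).

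Reads of near-identical copies may be shared or dropped, and how the authors treated them is not given in the sources used here. Cut into windows of 150 bases, the length of a read, 45 members had at least 50% of windows found in no other annotated gene. Of these, 42 were tested, 38 were lower and the median log2 fold change was -1.83. The 25 with less had 24 tested and 21 lower, with a median of -1.88. In the 15 members whose windows were all their own, 12 were tested, 9 were lower and the median was -1.64. These sets were not tested against each other, nor was the part of shared reads in the difference between groups. Only exact matches count as shared.

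Some copies were unlike their class in single libraries. The H2B gene Hist2h2bb has no window of its own, sharing them with the annotated genes Gm20628 and Gm42743, and stood at 2.51, 0.108 and 1.23 FPKM in dLAM and at 2.18, 179 and 5.48 FPKM in Mono-macrophages. Its high value was in Mono-macrophage library 2 alone. Gm20634, a gene model in the same cluster that shares windows with Hist2h2aa1 and the Hist2 H3 genes, was likewise at 8.94, 168 and 7.74 FPKM in Mono-macrophages and at 5.08, 2.74 and 7.61 FPKM in dLAM. The H3 gene Hist2h3c1 was at 0.111, 0.179 and 0.0885 FPKM in dLAM, at 26.6 and 19.9 FPKM in Mono-macrophage libraries 1 and 3, and was listed at 0 in library 2. Library 2 was also the one in which Hist2h2aa1 was lowest of its group. So 4 genes of 1 cluster that share sequence with other genes had an unusual value in the same library, while Hist2h3b (231, 150.1 and 245 FPKM in Mono-macrophages) and Hist2h3c2 did not. In cluster Hist1, Hist1h2bq (windows of its own over 7.64% of its transcripts) stood at 19.2, 24.4 and 24.8 FPKM in dLAM and at 85.9, 88.5 and 1.08 FPKM in Mono-macrophages, so library 3 was far below the other 2. Its near copy Hist1h2br stood at 3.97, 4.49 and 3.43 FPKM in dLAM and at 15, 12.4 and 25.7 FPKM in Mono-macrophages and was highest in that library. The cause of these values was not tested. Hist1h2bq, Hist1h2br and Gm20634 were singled out after their values were seen.

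**Figure D3:**
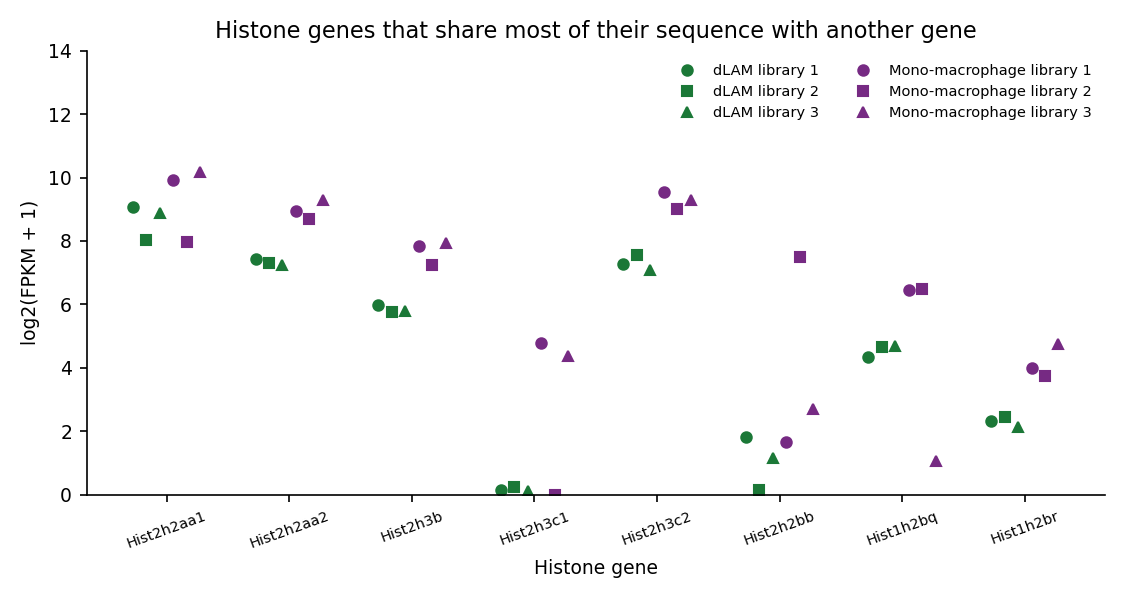
Level as log2(FPKM + 1) (vertical axis) in each of the 6 libraries for 8 histone genes that share sequence with other genes (horizontal axis). Hist2h2bb is high in Mono-macrophage library 2 alone, Hist2h3c1 is at 0 in that library, and Hist1h2bq is low in Mono-macrophage library 3, while Hist2h2aa2, Hist2h3b and Hist2h3c2 show groups that do not overlap.

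Mono-macrophage libraries also differed among themselves by class. Over tested members, the level in library 3 divided by the mean of libraries 1 and 2 had a median of 1.25 for H1 and 1.18 for H2A, but of 1.92 for H2B, 1.43 for H3 and 1.86 for H4. The median was also 1.67 for members with at least 50% of windows of their own and 1.18 for those with less. The median share of such windows was 41.1% in H2A, 77.7% in H2B, 61.9% in H3, 87.5% in H4 and 100% in H1. The part of shared sequence in the class ratios was not tested. The median ratio of the highest to the lowest Mono-macrophage library was 2.23 for H2B and 2.34 for H4, against 1.44 for H1, while in dLAM it was between 1.27 and 1.53 in all classes. H2A and H2B genes often lie head to head, and 14 of the 15 head-to-head pairs with less than 1000 bases between start sites were of 1 H2A and 1 H2B gene, with a median of 251 bases between starts over the 15. In 12 of those 14 pairs, the H2B gene had the larger library 3 ratio, counting Hist1h2aa, which was listed at 0 there. The 2 others were Hist1h2bq with Hist1h2ao and the Hist3 pair. Hist1h2ag had a ratio of 0.905 and its partner Hist1h2bj, 270 bases away, a ratio of 2.7. Hist1h2ae and Hist1h2bg, whose shared upstream stretch of 176 bases holds all 3 motifs, had ratios of 1.26 and 1.91.

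Library 3 differed in more than histones. Rpph1, the RNA of ribonuclease P, which carries no poly(A) tail, was at 24463, 26394 and 49417 FPKM in Mono-macrophages and took 15.8% of all FPKM in library 3, against 8.61% to 10.3% in the other 5. The same library had the highest summed neutrophil markers (12027) and the highest summed mitosis genes (679 FPKM against 507 and 446). Their part in the class pattern was not tested. Without library 3, 59 histone genes were lower and the median log2 fold change over tested members was -1.70. With only the 4 libraries low in Ddx3y RNA, 58 were lower and the median was -1.95.

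**Figure D4:**
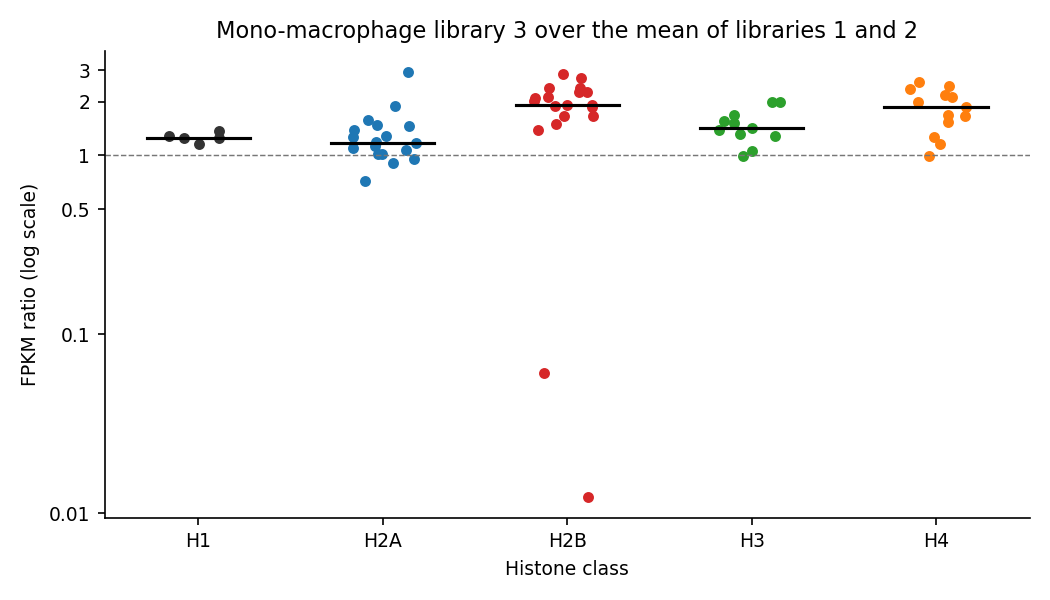
FPKM of Mono-macrophage library 3 divided by the mean of libraries 1 and 2 (vertical axis, log scale) for each tested member by histone class, with a line at the class median. Medians are 1.25 for H1, 1.18 for H2A, 1.92 for H2B, 1.43 for H3 and 1.86 for H4, and the 2 low H2B points are Hist1h2bq and Hist2h2bb.

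Tested members were also divided by sequence features that the symbol rule did not use. The 44 tested genes with a stem-loop in the annotated transcript had a median log2 fold change of -1.83, and the 5 with enough annotated sequence and no match had -1.73. Genes with TATAAA in the promoter window had a median of -1.84 and genes without it -1.86. With the octamer the median was -1.93 and without it -1.85. These are medians of members that passed the filter and were not tested against each other.

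Variants outside the clusters, listed here as replication-independent, replace core histones outside S phase or at special sites. Whether the RNA of each one is free of the cell cycle was not tested. Of 11 listed, 9 were tested, 4 were lower in dLAM, 0 were higher (limma; 0 at an unadjusted p under 0.05), and the median log2 fold change was -0.37. H2afx, for H2A.X, which marks DNA breaks when phosphorylated, stood at 40.3, 44.3 and 36.6 FPKM in dLAM and at 123, 96.5 and 166 FPKM in Mono-macrophages (log2 fold change -1.62 ± 0.19, limma adjusted p = 0.000763). Cenpa, the centromeric H3, stood at 1.89, 2.3 and 2.77 FPKM in dLAM and at 5.2, 5.46 and 7.29 FPKM in Mono-macrophages (-1.07 ± 0.16, limma adjusted p = 0.00234). H3f3a, which encodes H3.3, stood at 25.9, 26.8 and 28.8 FPKM in dLAM and at 54.8, 44.7 and 73 FPKM in Mono-macrophages (-1.03 ± 0.17, limma adjusted p = 0.00345). The groups of all 3 were apart. The fourth was H2afv (-0.74 ± 0.15). H3f3b, a second gene for the H3.3 protein, stood at 70.3, 56.3 and 73.5 FPKM in dLAM and at 72.8, 85 and 84.4 FPKM in Mono-macrophages with overlapping groups and did not pass (-0.28 ± 0.13). H2afz, for H2A.Z, stood at 3.19, 2.47 and 3.94 FPKM in dLAM and at 3.52, 4.78 and 2.76 FPKM in Mono-macrophages, and H1f0, a linker histone of non-dividing cells, at 45.4, 34.4 and 45.4 FPKM in dLAM and at 42.9, 41.1 and 35.1 FPKM in Mono-macrophages. Both had overlapping groups and log2 fold changes of -0.15 ± 0.20 and 0.06 ± 0.14, and the sign of both turned under at least 1 other setting or with 1 library left out.

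The next list holds the factors that transcribe histone genes and process, translate and degrade their messengers. Of 24 listed genes in the table, 23 were tested, 0 were lower (0 of 23, limma), 1 was higher and the median was -0.02. Npat stood at 4.33, 4.13 and 5.45 FPKM in dLAM and at 4.88, 4.26 and 5.28 FPKM in Mono-macrophages. Slbp stood at 6.83, 8.09 and 7.4 FPKM in dLAM and at 9.44, 7.92 and 11.9 FPKM in Mono-macrophages. Casp8ap2, the histone locus body protein FLASH, stood at 13, 11.5 and 13.9 FPKM in dLAM and at 13.7, 16.2 and 14.5 FPKM in Mono-macrophages. None of these passed, with log2 fold changes of -0.05 ± 0.14, -0.33 ± 0.15 and -0.20 ± 0.11. Lsm11, part of the U7 particle, was at 1.31, 1.28 and 1.22 FPKM in dLAM and at 1.22, 0.839 and 1.81 FPKM in Mono-macrophages (0.01 ± 0.17), and its sign was negative after median-of-ratios scaling or quantile normalization. Mif4gd, which binds SLBP and helps translate histone messengers, was the gene that was higher in dLAM, at 6.4, 8.27 and 8.55 FPKM in dLAM and at 4.81, 4.85 and 4.65 FPKM in Mono-macrophages (0.59 ± 0.13, limma adjusted p = 0.0117). It no longer passed without dLAM library 2 (limma adjusted p = 0.055). At an unadjusted p under 0.05, 1 of the 23 was lower.

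Histone chaperones hand new histones to the replication fork and to chromatin. Of 24, 3 were lower in dLAM, 1 was higher and the median was -0.01. Of all genes tested 10.6% were lower and 19.9% higher, so nothing is read from the chaperone count. Asf1b, the proliferation-linked carrier of H3 and H4, stood at 3.2, 3.16 and 3.27 FPKM in dLAM and at 10.6, 8.7 and 14.8 FPKM in Mono-macrophages (-1.52 ± 0.18, limma adjusted p = 0.000718). Hjurp, which loads Cenpa, stood at 6.11, 7.41 and 7.28 FPKM in dLAM and at 11.9, 12.3 and 18.6 FPKM in Mono-macrophages (-0.92 ± 0.18, limma adjusted p = 0.00669), and the groups of both were apart. Asf1a was the other lower gene (-0.44 ± 0.13). Ipo4, an importin that carries H3 and H4 into the nucleus, was higher at 3.25, 3.41 and 3.24 FPKM in dLAM and at 1.23, 1.04 and 0.772 FPKM in Mono-macrophages (1.10 ± 0.13, limma adjusted p = 0.000791). Chaf1b, a subunit of chromatin assembly factor 1, stood at 1.49, 1.19 and 1.41 FPKM in dLAM and at 1.4, 1.62 and 2.04 FPKM in Mono-macrophages and did not pass (-0.18 ± 0.14).

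DNA replication genes were lower in part, with 17 of 44 tested lower, 0 higher (limma; 1 at an unadjusted p under 0.05) and a median of -0.34. Rrm2, the S phase subunit of ribonucleotide reductase, stood at 5.43, 6.51 and 5.22 FPKM in dLAM and at 20.3, 23.6 and 29.9 FPKM in Mono-macrophages (-1.92 ± 0.16, limma adjusted p = 0.000154). Ccna2, the cyclin of S phase and G2, stood at 3.75, 4.87 and 3.49 FPKM in dLAM and at 16.4, 13.8 and 24.8 FPKM in Mono-macrophages (-1.91 ± 0.22). E2f2, a transcription factor of the cell cycle, stood at 8.22, 10.6 and 12.5 FPKM in dLAM and at 39, 37 and 33.6 FPKM in Mono-macrophages (-1.73 ± 0.15). In these 3 the lowest Mono-macrophage library was well above the highest dLAM library. Ccne2, a cyclin of the entry into S phase, stood at 0.721, 0.616 and 0.548 FPKM in dLAM and at 2.42, 1.85 and 4.26 FPKM in Mono-macrophages. It passed the filter through Mono-macrophages alone, which set its direction, and without it 16 of 43 were lower. Pcna, the sliding clamp, stood at 16, 15.9 and 17.4 FPKM in dLAM and at 21, 22.1 and 28.4 FPKM in Mono-macrophages (-0.50 ± 0.13, limma adjusted p = 0.0225), and no longer passed without dLAM library 1 or 2. The count was 9 without dLAM library 1 and 10 without dLAM library 2, and the calls over all genes fell from 1204 to 780 lower without dLAM library 2. Helicase subunits divided, with Mcm5 (-0.82 ± 0.14) and Mcm7 (-0.58 ± 0.15) lower, and Mcm2 at -0.07 ± 0.14, Mcm3 at 0.02 ± 0.16, Mcm4 at -0.33 ± 0.13 and Mcm6 at -0.11 ± 0.17 not passing.

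G2 and mitosis genes were lower in dLAM for 20 of 20, with a median of -1.51, or 19 of 19 without Ccnb1, which passed the filter through Mono-macrophages alone. Kif11, a motor of the mitotic spindle, stood at 7.14, 9.66 and 10.3 FPKM in dLAM and at 39.8, 36 and 62 FPKM in Mono-macrophages (-2.20 ± 0.22, limma adjusted p = 0.000353). Mki67, the proliferation marker Ki-67, stood at 44.3, 52.2 and 53.9 FPKM in dLAM and at 186, 161 and 231 FPKM in Mono-macrophages (-1.91 ± 0.15, limma adjusted p = 0.00014). Top2a, which untangles DNA, stood at 11.8, 14 and 12.7 FPKM in dLAM and at 44.8, 36.2 and 61.9 FPKM in Mono-macrophages (-1.78 ± 0.19). In all 3 the groups were apart, and Plk1, a mitotic kinase, had -1.81 ± 0.17. The medians side by side were -1.85 for tested histone genes, -1.51 for mitosis, -0.34 for replication and 0.06 for all genes tested. The lists were not tested against each other.

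**Figure D5:**
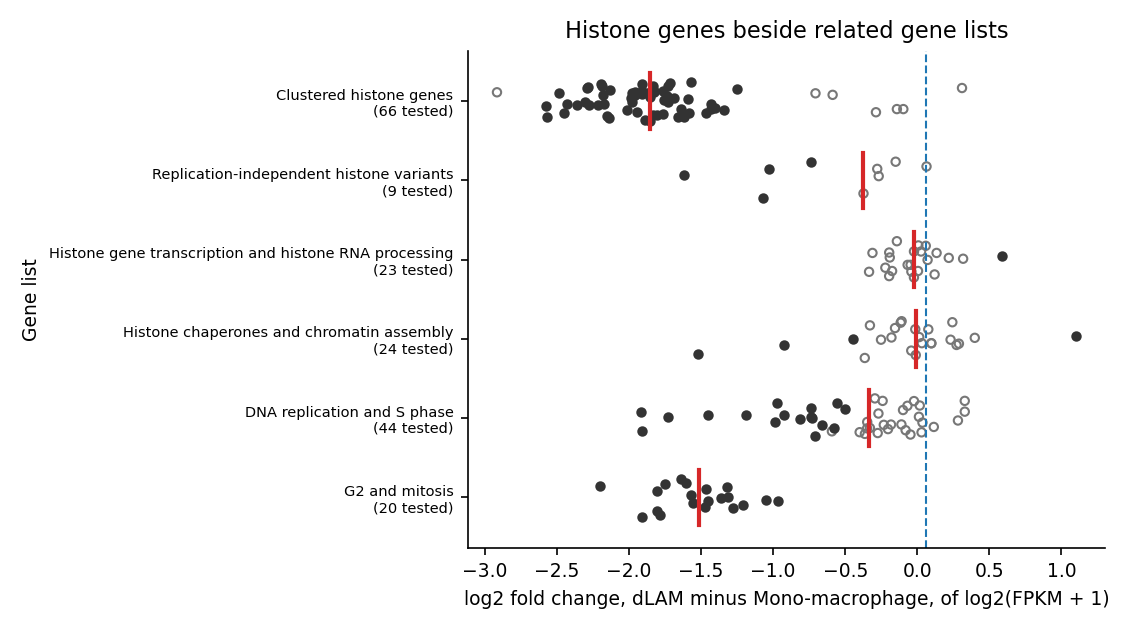
Log2 fold change (horizontal axis, dLAM minus Mono-macrophages on the log2(FPKM + 1) scale) of each tested gene in 6 gene lists (rows), filled where the limma adjusted p was under 0.05 and open where it was not, with a red line at the list median and a dashed line at the median of all genes tested, 0.06. Clustered histone genes and mitosis genes lie farthest to the left, at medians of -1.85 and -1.51, and the processing and chaperone lists lie around 0.

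Other RNAs without a poly(A) tail were set beside the histones, since library preparation can weigh such RNAs differently and the library kit is not given in the sources used here. Of 6 in the table, 5 were tested. Rny1, a Y RNA, was listed at 0 in all 3 dLAM libraries and at 1.3, 3.18 and 1.57 FPKM in Mono-macrophages, values of a few reads. It passed the filter through Mono-macrophages alone, which set its direction, and of the other 4 none passed the test (limma; 1 at an unadjusted p under 0.05). Rpph1 was at 29842, 23984 and 26445 FPKM in dLAM and did not pass (-0.25 ± 0.65). Without Mono-macrophage library 3 its log2 fold change was 0.07. Rmrp (0.14 ± 0.26), Terc (-0.82 ± 0.29) and Malat1 (0.41 ± 0.22), a nuclear RNA whose end is a triple helix, did not pass either.

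Few of the other genes that lie between the histone genes were measured above the filter. Within the Hist1 span lie 100 non-histone genes of the table, many of them vomeronasal receptors and their pseudogenes, of which 82 were listed at 0 in all libraries and 5 were tested. Hfe, which regulates iron uptake, was higher in dLAM at 11.6, 13.9 and 9.93 FPKM in dLAM and at 4.51, 2.76 and 3.02 FPKM in Mono-macrophages (1.54 ± 0.18, limma adjusted p = 0.000755). Abt1 (-0.06 ± 0.17) and Zfp322a (-0.26 ± 0.15) did not pass. The 1 lower gene, Gm11336 (-0.81 ± 0.19), shares windows with H2A genes of the cluster, and no longer passed without dLAM library 2 or 3. In the Hist2 span 3 of 5 were tested, and Gm20633 (7.43, 6.26 and 7.79 FPKM in dLAM and 16.9, 12.6 and 16.8 FPKM in Mono-macrophages) and Gm20632 (-0.87 ± 0.15), which share windows with Hist2h2aa1, were lower.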

How the data were processed

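The authors deposited 1 table of FPKM (fragments per length of gene and size of library) for 34652 genes in 6 bulk libraries. Each of its columns matched 1 library. Per the submitters' processing notes, FastQC, HISAT2 and featureCounts were used with build mm10. Versions, settings, the handling of strand and of reads with several matches, and the library kit were not given in the sources used here, so levels of near-identical histone copies and of overlapping genes are uncertain. No model for counts was fitted, since FPKM are not counts. Depth came from the steps of low values, which with GENCODE M21 exon lengths (94.5% of symbols matched, all 70 histone genes) gave 1.23e+07 to 1.70e+07 fragments. Between 34.4% and 44.3% of values below 20 reads came out within 0.02 of a whole read, too few to recover counts. A read in a gene of 500 bases is worth 0.118 to 0.163 FPKM. No pair of libraries was identical.

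Genes with at least 1 FPKM in at least 3 libraries (11317) were tested as log2(FPKM + 1) in limma 3.58.1 (R 4.3.3) with group as the only term, empirical Bayes moderation with a trend, Benjamini-Hochberg adjustment over all genes tested and a threshold of 0.05. The same code was tested on simulated data. Log2 fold changes are dLAM minus Mono-macrophages with their standard error (SE) and understate the change of low genes. Levels are FPKM with the standard deviation (SD) over 3 libraries. Near-identity was measured as the share of a gene's 150-base transcript windows with no exact match in another gene of GENCODE M21. Python 3.11.15 with pandas 2.3.3, numpy 2.4.6, Biopython 1.88 and matplotlib 3.10.9 was used for tables and plots.

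The histone genes, the lists (histone variants, histone RNA transcription and processing, chaperones, replication, mitosis, RNAs without a poly(A) tail, cluster neighbours and markers of 8 cell types) and the alternatives were chosen with earlier results of these data known. Named histone genes are the 3 highest in mean FPKM and the lowest and highest fold change of each class, any with a fold change above 0, and all of Hist2 to Hist4. Named list genes are the 3 largest changes that passed, up to 3 in the opposite direction and a set list of regulators. Further genes are named to complete a count or an exception, after their values were seen. Alternatives were another pseudocount, other filters and scalings, no trend, a replicate block, each library left out and, chosen after seeing the data, the 4 libraries low in Ddx3y.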

Additional observations from a re-analysis of the deposited data

How the results depend on the processing

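The count of histone genes lower in dLAM lay between 58 and 60 under every alternative that set no limit on shared windows. Their median log2 fold change lay between -2.07 and -1.70. With only members of at least 50% windows of their own, 38 of 42 tested were lower and the median was -1.83. The median over all genes tested changed sign, to -0.0059 after median-of-ratios scaling and -0.046 after quantile normalization. With a filter of 5 FPKM, which leaves fewer genes, 1247 genes were higher, 11 replication genes were lower, and 0 chaperones were higher, 0 RNAs without a poly(A) tail lower and 0 Hist1 neighbours lower. Under median-of-ratios scaling or quantile normalization 1 processing gene was lower, and under the latter 5 chaperones were lower; the cause was not tested. The Hist2 median was -1.57 with members of at least 50% windows of their own, which is the value of the single gene Hist2h2ac. With the 4 libraries low in Ddx3y RNA, fewer samples, 1480 genes were higher and 780 lower, 0 processing genes were higher and 0 Hist1 neighbours lower. Leaving out each library in turn gave ranges of 780 to 1220 genes lower, 9 to 18 replication genes lower and 0 to 1 higher, 0 to 2 processing genes lower and 0 to 1 higher, 2 to 5 chaperones lower and 1 to 2 higher, and 0 to 1 Hist1 neighbours lower. The same ranges of medians were -2.01 to -1.69 for H2A, -2.04 to -1.50 for H4 and -1.90 to -1.50 for Hist2. Of 61 named genes, 46 kept their direction and their side of the threshold in every alternative. Deviations from the group means of libraries with the same number in both groups correlated at 0.19, -0.15 and -0.09 (across genes). The largest correlation was 0.39, between dLAM 3 and Mono-macrophage 2, the libraries with more Ddx3y RNA. Whether any libraries of the groups are paired cannot be decided from these values. With a replicate block 999 genes were lower, 1860 higher and 59 histone genes lower. With 3 libraries per group of 1.23e+07 to 1.70e+07 fragments, differences in genes of a few FPKM were limited by depth, and the outcome for near-identical copies rests on how shared reads were assigned.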
